A study of Mus musculus with 8 samples.

Results

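The interferon-inducible gene families were followed in the left ventricle of mice infused with angiotensin II (ANG II), a vasoconstrictor peptide that raises blood pressure and leads to hypertrophy of the left ventricle. Members were chosen by gene symbol alone, as the rows whose symbol begins with Ifi and a digit, Ifit (Ifitm included), Gbp and a digit, Oas, Isg or Irgm, or reads Ifih1, Mx1, Mx2 or Irf and a digit. The rule found 74 of the 55679 genes in the table, which were grouped into 12 families. Of these, 64 had a mean of at least 0.1 FPKM (sequenced fragments scaled to transcript length and to library size) over the 8 libraries and were tested. Gbp2-ps, Ifi44l, Oas1d, Oas1e and Oas1f were listed at 0 in all 8 libraries, and Ifi47, Ifi202b, Ifi214, Ifitm7 and Oas1h stayed under that mean, so these 10 were not tested.

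All animals were male wild-type C57BL/6J mice with no transgene. The control group received saline and the ANG II group received 1500 ng/kg/min of ANG II, both for 7 days from an osmotic pump placed under the skin. The heart was flushed with saline before the left ventricle was taken, and poly(A) RNA was sequenced in 4 control and 4 ANG II libraries. Ages were not given, the libraries are whole tissue in which fewer cells of a type and less RNA per cell cannot be told apart, and because nothing in the labels ties a library to 1 animal the p-values measure only the spread between these libraries.

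Type I interferons are secreted by cells that sense foreign or misplaced nucleic acid, and they signal through the receptor pair IFNAR1 and IFNAR2 to a complex that holds STAT2 and IRF9 and binds the interferon-stimulated response element (ISRE) in front of target genes. Interferon gamma acts through IFNGR1 and IFNGR2, and its target genes carry the gamma-activated site (GAS). The targets include proteins that block viral RNA, GTPases that attack the compartments of intracellular microbes, and further interferon regulatory factors, and in the heart they are known from viral myocarditis and from the response to tissue injury.

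Fragment counts recovered from the steps between FPKM values came to 14455742 to 16564935 per library. Mitochondrial genes took 26.33 to 26.95% of fragments in the controls and 19.23 to 21.84% in the ANG II libraries. The cardiomyocyte list, which includes Myh6 and Tnnt2, summed to 48570 to 49930 FPKM in the controls and 36930 to 39220 FPKM after ANG II, so the labelled tissue carried its defining transcripts in every library. Macrophage markers summed to 316.1 to 406.4 FPKM in the controls and 783.4 to 1099 FPKM after ANG II, and fibroblast markers to 523.7 to 789.6 FPKM and 3355 to 4006 FPKM. Their part in the results below was not tested.

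Several libraries lay at the edge of their group for the interferon-inducible members. Control 4 was the highest of the 4 controls for 41 of the 64 tested members (64.1%), against 17.5% of all genes tested. Its ratio to the mean of controls 1 to 3 had a median of 1.73 over the members and 0.956 over all genes. Control 2 was the lowest control for 41 members, against 21.9% of all genes, ANG II 1 the highest ANG II library for 39, against 26.2%, and ANG II 2 the lowest for 43, against 27.4%. Without control 2 the median log2 fold change of the members was 0.20, in place of 0.31 with all libraries, and without control 4 it was 0.41. Control 4 was the library whose removal moved the count of members called higher by more than 1.5 times, and counts that it moved are also given without it.

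Of the 64 tested members, 13 rose and 1 fell with ANG II. A call needed an adjusted p under 0.05 in limma on log2(FPKM + 1), with Benjamini-Hochberg adjustment over all 19364 genes tested, and an absolute log2 fold change above 0.5. Ifitm1, Ifitm2, Ifitm3, Ifitm10, Ifi27, Ifi27l2a, Ifi207, Ifi209, Oas3, Mx1, Isg20, Irf5 and Irf8 rose, and Ifit1bl2 fell. The share of tested members called higher was 20.3%, against 14.0% of all genes tested, and the share called lower was 1.56%, against 1.41%. For 10 members (15.6%) the groups did not overlap with ANG II the higher, which held for 28.7% of all genes, and for 1 member (1.56%) they did not overlap with ANG II the lower, against 5.06%. Over the members the median log2 fold change was 0.31, and over all genes it was 0.15.

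**Figure D1:**
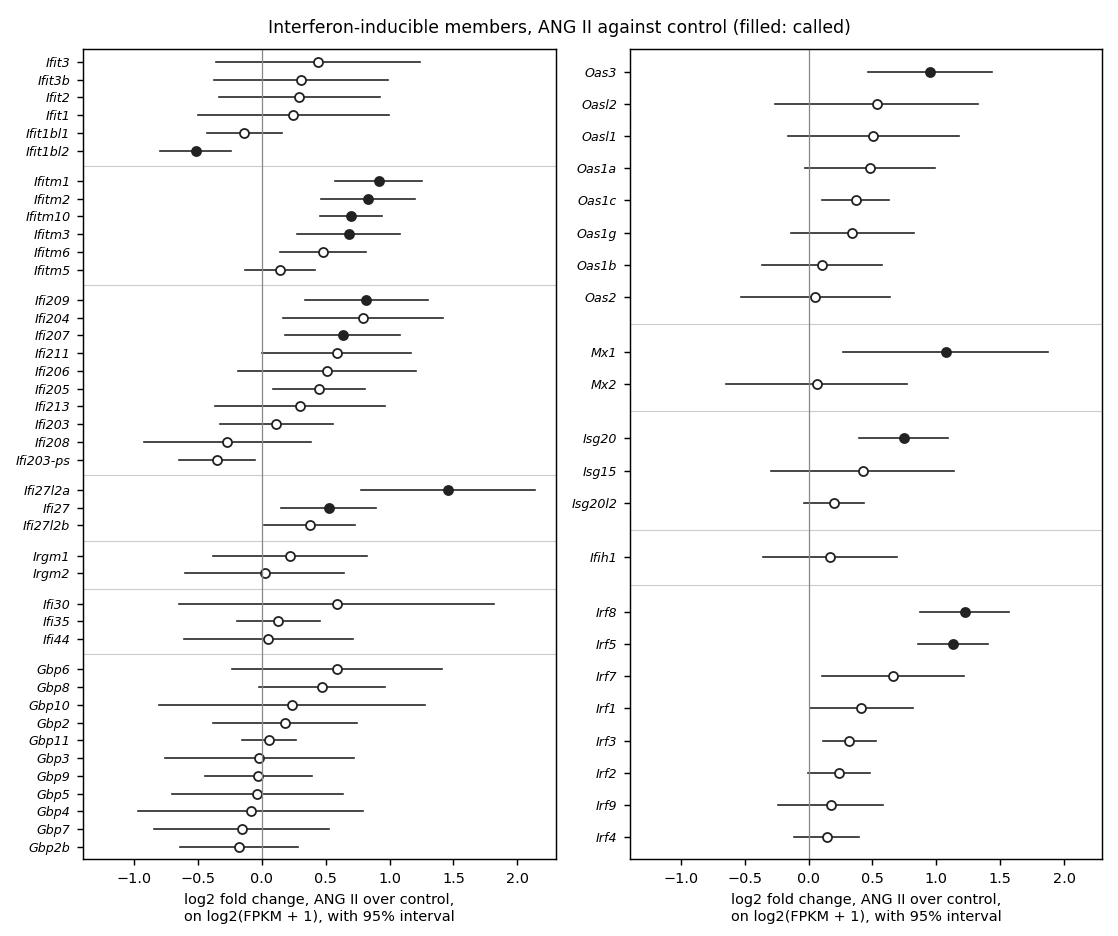
Log2 fold change of ANG II over control on log2(FPKM + 1) for tested members (x axis), with the 95% interval as a line. Members are grouped by family and separated by grey lines, and filled points are the 14 that were called. Ifi27l2a lies farthest right at 1.46 and Ifit1bl2 is the filled point left of 0, at -0.52.

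The scale of the libraries moved these counts. Scaling by the median of ratios moved the median log2 fold change of all genes from 0.15 to 0.01, and left 8 members called higher and 2 lower. Quantile normalization moved it to -0.04, with 7 higher and 2 lower. The share of all calls that were higher fell from 90.8% to 68.5% and 59.1%. Measured from the median of all genes, the log2 fold changes of the 13 members that rose ran from 0.38 for Ifi27 to 1.31 for Ifi27l2a.

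Leaving out control 4 raised the count from 13 to 24 members higher (37.5%), while 13.1% of all genes were then called higher. Control 4 was picked out by these same values, as the highest control for 41 members against 17.5% of all genes. A rise in the count without it follows in part from that choice, so these shares are no test of induction. Of the 14 members called with all 8 libraries 13 were called again, and Ifi27 was lost, with an adjusted p of 0.0867. The members added were Ifi204, Ifi206, Ifi211, Ifit1, Ifit2, Ifit3, Ifit3b, Irf7, Isg15, Oas1a, Oasl1 and Oasl2. Leaving out any of the other 7 libraries gave 9 to 13 members higher.

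**Figure D2:**
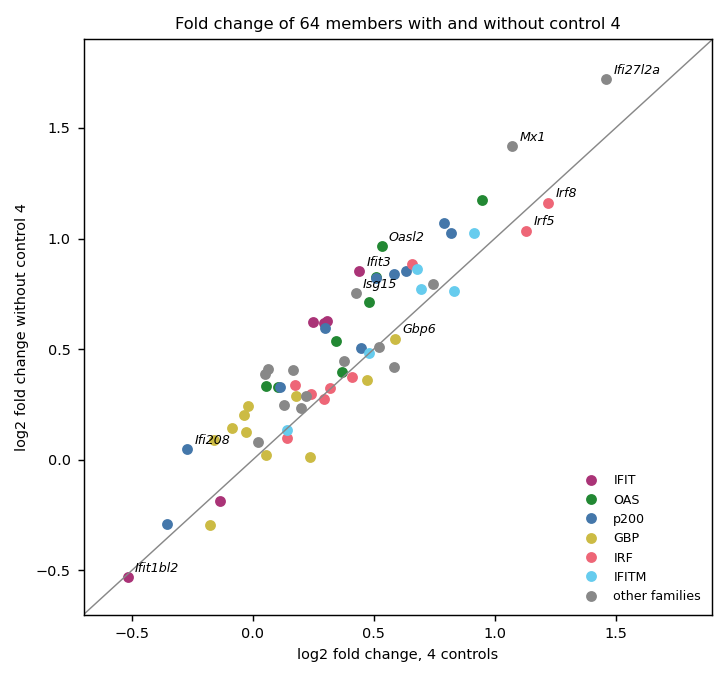
Log2 fold change of each of the 64 members with all 4 controls (x axis) and without control 4 (y axis), coloured by family, with the line of equal values. All 8 OAS members, all 10 p200 members and 4 of 6 IFIT members lie above the line, as Oasl2 does at 0.53 and 0.97, while Irf8 and Irf5 lie just under it at 1.22 and 1.13 against 1.16 and 1.04.

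The promoter window of RefSeq, 250 bases before to 50 after a start site in GRCm38.p6, was given for 55 of the 74 members. The ISRE core was searched on both strands as GAAANNGAAA and the GAS core as TTCNNNGAA, and matches of the ISRE core may overlap one another. The ISRE core was found for 29 of the 55 members (52.7%), against 3.99% of all 27025 genes with a window and 3.44% of all 32851 windows. The GAS core was found for 13 members (23.6%), against 9.6% of all genes and 8.3% of all windows. A match describes the letters only.

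The stretches below are those with an ISRE core in front of the annotated gene, for the 4 called members that have one and for the 2 such members of highest mean FPKM, Gbp3 and Ifit3. They are written 5′ to 3′ on the gene's own strand with the ISRE core in capitals, also where it reads on the opposite strand as TTTCNNTTTC. In order, they lie at chr5:120777695-120777764 (minus strand), chr7:140955988-140956037 (minus), chr1:173741811-173741880 (minus), chr19:34640755-34640843 (minus), chr3:142559969-142560025 (plus) and chr19:34583343-34583446 (plus) of GRCm38.p6.
Oas3: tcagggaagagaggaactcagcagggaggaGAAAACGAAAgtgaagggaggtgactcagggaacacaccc
Ifitm2: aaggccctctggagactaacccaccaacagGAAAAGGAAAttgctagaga
Ifi207: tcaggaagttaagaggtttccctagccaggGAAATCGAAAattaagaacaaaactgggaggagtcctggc
Ifit1bl2: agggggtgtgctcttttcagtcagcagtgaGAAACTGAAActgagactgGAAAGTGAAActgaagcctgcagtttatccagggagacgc
Gbp3: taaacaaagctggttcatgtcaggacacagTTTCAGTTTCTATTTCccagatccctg
Ifit3: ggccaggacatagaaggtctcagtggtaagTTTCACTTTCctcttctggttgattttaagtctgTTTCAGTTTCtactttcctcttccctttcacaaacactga

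The Ifit1bl2 stretch is also the stretch in front of Ifit1, read on the other strand, with all 89 positions identical, since the genes start back to back. The stretch of Ifit3 is identical at all 104 positions to that of its neighbour Ifit3b. Of the 48 tested members with a promoter window, 28 carried the ISRE core, and among these control 4 was the highest control for 20, with a median ratio of 2.0 to the other controls. Among the 20 without it, control 4 was the highest for 11 and the median ratio was 1.31. The 455 other tested genes with the ISRE core had a median ratio of 0.966. Of the 28 members with the core 4 were called higher (14.3%) and 1 lower, and of the 20 without it 6 were called higher (30%). Among the other tested genes with a window 20.7% of the 455 with the core and 16.5% of the 11586 without it were called higher, beside the 14.0% of all genes.

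Sensors of foreign nucleic acid come first in the pathway. Ifih1 encodes MDA5, a sensor of long double-stranded RNA, and stood at 7.06, 4.57, 7.61 and 13.0 FPKM in controls 1 to 4 and at 10.6, 8.07, 7.72 and 8.35 FPKM in ANG II libraries 1 to 4. The groups overlapped, with control 4 the highest of all 8 libraries. Its log2 fold change was 0.17 ± 0.24 (SE, adjusted p = 0.626) and turned to -0.03 and -0.11 under median-of-ratios and quantile scaling.

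The p200 family, whose proteins bind DNA in the nucleus or cytosol and share a HIN domain, had 12 members, of which 10 were tested and 2 rose. Ifi209 was measured at 2.12, 1.36, 1.78 and 3.82 FPKM in the controls and at 5.08, 3.26, 5.15 and 4.97 FPKM after ANG II. Its log2 fold change was 0.82 ± 0.22 (SE, adjusted p = 0.0157), and the single overlap came from control 4 above ANG II 2. Without ANG II 1 the adjusted p was 0.0514, under median-of-ratios and quantile scaling it was 0.0519 and 0.111, and 33.7% of its sequence words (short runs of its transcript) are shared with other genes, chiefly Ifi214, so its level is uncertain.

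Ifi207 lay at 4.68, 3.96, 5.09 and 9.18 FPKM in the controls and at 9.6, 7.77, 8.54 and 10.4 FPKM after ANG II. Controls 1 to 3 were all under the lowest ANG II library and control 4 was above 2 of them. The log2 fold change was 0.63 ± 0.20 (SE, adjusted p = 0.035), and 0.85 ± 0.12 (SE, adjusted p = 0.00154) without control 4. Leaving out any other library ended the call, at adjusted p values from 0.0512 without ANG II 2 to 0.1 without ANG II 4, and so did median-of-ratios and quantile scaling at 0.15 and 0.246.

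Ifi204 encodes a p200 protein of myeloid cells and was listed at 7.45, 4.36, 5.8 and 13.6 FPKM in the controls and 16.4, 10.9, 16.0 and 10.5 FPKM after ANG II. It missed the threshold with all libraries (log2 fold change 0.79 ± 0.28 SE, adjusted p = 0.054) and passed it without control 4 (1.07 ± 0.20 SE, adjusted p = 0.00602). With all 8 libraries it was also called among genes of at least 1 FPKM (adjusted p = 0.0376), with a pseudocount of 0.1 (0.88, adjusted p = 0.0497) and by voom on the recovered fragments (0.88, adjusted p = 0.0197). Median-of-ratios and quantile scaling gave Ifi204 0.59 and 0.53, with adjusted p values of 0.161 and 0.198. Ifi203 had the highest mean of the family, at 36.0, 26.7, 31.0 and 57.1 FPKM in the controls and 46.5, 34.6, 37.6 and 39.2 FPKM after ANG II, and its log2 fold change of 0.11 ± 0.20 (SE, adjusted p = 0.701) turned to -0.10 and -0.07 under median-of-ratios and quantile scaling. Control 4 was the highest control for all 10 tested members of the family, at 1.2 to 3.73 times the mean of the others, and control 2 was the lowest for all 10.

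Among the rest of the p200 family Ifi205, Ifi206, Ifi211 and Ifi213 had log2 fold changes of 0.30 to 0.59 (Ifi205 was called without ANG II 2, at 0.56, adjusted p = 0.0315, and by voom, at 0.51, adjusted p = 0.0364) and Ifi203-ps and Ifi208 of -0.35 and -0.27, with no call. Ifi208 turned to 0.05 without control 4, which was at 3.32 times the mean of the other controls, and Ifi213, at 0.30, turned to -0.01 under quantile normalization. Without control 4, Ifi206 and Ifi211 passed as well, at 0.82 and 0.84, which made 5 of 10. Ifi211 shares 72.8% of its sequence words with other genes, chiefly Ifi205, and Ifi203-ps, Ifi206, Ifi208 and Ifi204 share 20.0 to 26.3%, so reads may be split among them. Ifi203-ps was called lower under median-of-ratios scaling (-0.55) and quantile normalization (-0.62). Under those scalings Ifi205 had 0.26 and 0.14, with adjusted p values of 0.291 and 0.58.

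Interferon regulatory factors carry the signal to the genome, and 2 of the 9 tested members of this family rose, beside 14.0% of all genes tested. Irf9 turned from a log2 fold change of 0.17 to -0.03 and -0.07 under median-of-ratios and quantile scaling. Irf8, a factor of macrophage and dendritic cell development, was measured at 7.4, 4.26, 4.47 and 4.26 FPKM in the controls and at 11.9, 11.6, 14.6 and 13.7 FPKM after ANG II. Each ANG II library was above each control, and control 1 lay apart above the other 3 controls. The log2 fold change was 1.22 ± 0.15 (SE, adjusted p = 0.000305), called under all 16 alternatives that kept the thresholds.

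Irf5, which drives inflammatory cytokine genes in myeloid cells, was at 5.19, 3.95, 4.43 and 3.23 FPKM in the controls and at 10.7, 9.0, 10.7 and 10.8 FPKM after ANG II. The groups did not overlap, control 4 was the lowest control, and the log2 fold change was 1.13 ± 0.12 (SE, adjusted p = 0.000127), also called under all 16 alternatives. The exact two-sided permutation test over the 70 allocations of the 8 libraries gave p = 0.0286 for Irf5 and for Irf8, the smallest it can give. Part of Irf5 (14.1%) is overlapped by a gene on the opposite strand, and strand use in counting is not given in the sources used here.

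Irf7, the factor that amplifies type I interferon, stood at 15.2, 14.3, 10.6 and 25.6 FPKM in the controls and at 32.2, 17.7, 23.9 and 29.7 FPKM after ANG II. Control 4 exceeded 2 of the ANG II libraries, and the log2 fold change of 0.66 ± 0.25 (SE) had an adjusted p of 0.068. It passed without control 4 (0.88, adjusted p = 0.0138) and without ANG II 2 (0.82, adjusted p = 0.0401), and with all 8 libraries among genes of at least 1 FPKM (0.66, adjusted p = 0.0486) and by voom (0.70, adjusted p = 0.0324). Median-of-ratios and quantile scaling gave Irf7 0.45 and 0.44, with adjusted p values of 0.216 and 0.22. Irf3, the factor activated directly by nucleic acid sensing, was at 22.0, 17.9, 16.3 and 18.8 FPKM and at 25.2, 20.9, 23.5 and 24.7 FPKM, a log2 fold change of 0.32 ± 0.09 (SE, adjusted p = 0.0244) under the fold threshold.

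Irf1, Irf2, Irf4 and Irf9 overlapped between groups, with log2 fold changes of 0.14 to 0.41. Without control 1, the highest control for Irf1, that gene was called as well (0.59, adjusted p = 0.0116). In this family control 4 had a median ratio of only 0.868 to the other controls.

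**Figure D3:**
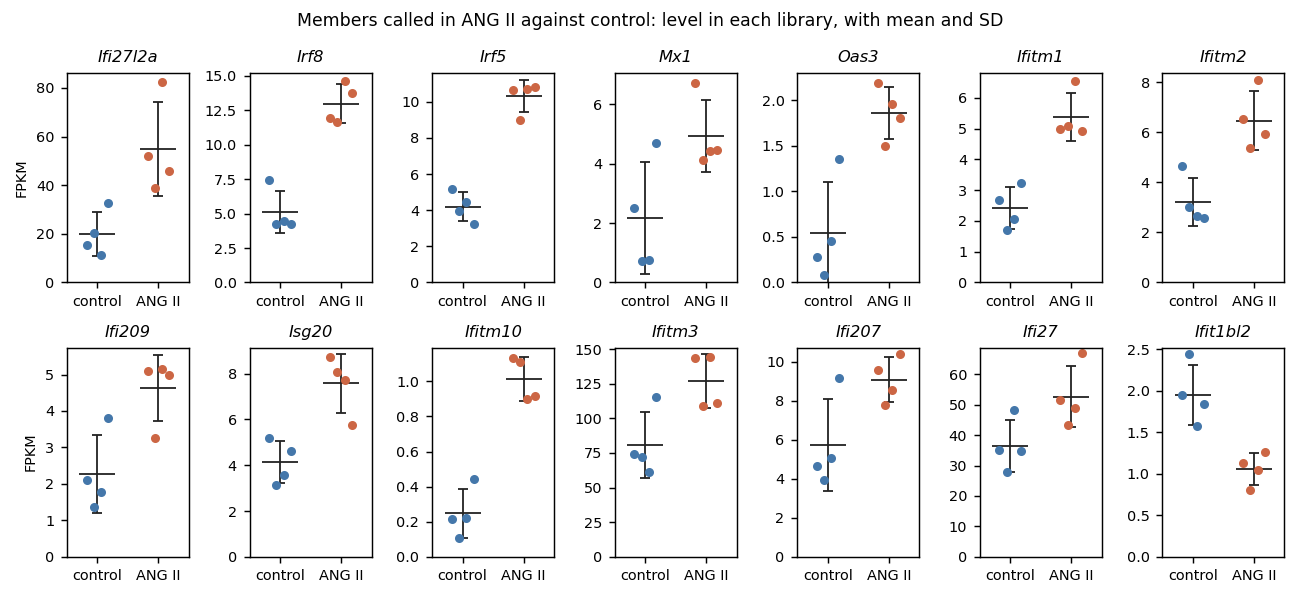
FPKM (y axis, from 0) of the 14 called members in each control (blue) and ANG II (orange) library, with the group mean as a bar and the SD as whiskers (n = 4). Irf5, Irf8, Ifitm1, Ifitm2, Ifitm10, Ifi27l2a, Oas3, Isg20 and Ifit1bl2 do not overlap between groups, and a single control dot, control 4, lies high in the panels of Mx1, Oas3, Ifi207, Ifi209 and Ifitm3.

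The IFITM family, membrane proteins that block virus entry at the endosome, had 4 of 6 tested members called higher. Ifitm3 had by far the highest level of the family, at 74.0, 72.2, 60.9 and 115 FPKM in the controls and 144, 109, 144 and 111 FPKM after ANG II. Control 4 exceeded 2 ANG II libraries, and the log2 fold change was 0.68 ± 0.18 (SE, adjusted p = 0.016). Without ANG II 1 or ANG II 3 the adjusted p was 0.0563 and 0.0517, and median-of-ratios and quantile scaling gave 0.0945 and 0.0666.

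Ifitm2 was at 4.65, 3.03, 2.67 and 2.6 FPKM in the controls and at 6.55, 5.36, 8.08 and 5.92 FPKM after ANG II, with a log2 fold change of 0.83 ± 0.16 (SE, adjusted p = 0.00369). Ifitm1 was at 2.67, 1.7, 2.08 and 3.24 FPKM and at 5.0, 5.1, 6.56 and 4.91 FPKM, with a log2 fold change of 0.92 ± 0.15 (SE, adjusted p = 0.00141). For both genes every ANG II library was above every control, and both were called under all 16 alternatives. Ifitm2 shares 48.5% of its sequence words with other genes, chiefly Gm45717, and its level is uncertain.

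Ifitm10 was low, at 0.217, 0.107, 0.22 and 0.443 FPKM in the controls (3 to 13 fragments) and 1.14, 1.11, 0.897 and 0.914 FPKM after ANG II (26 to 34 fragments). Its group means were 0.247 ± 0.141 and 1.01 ± 0.126 FPKM (SD, n = 4), so the log2 fold change of 0.70 ± 0.11 (SE, adjusted p = 0.000993) understates the ratio because 1 was added before the logarithm. Ifitm6, a relative found in myeloid cells, was at 0.193, 0.0954, 0 and 0.0911 FPKM and at 0.368, 0.786, 0.184 and 0.872 FPKM. It passed the adjusted p (0.0336) but not the fold threshold (0.48 ± 0.15 SE), which it crossed without ANG II 1 (0.53), ANG II 3 (0.60) or control 1 (0.52), with a pseudocount of 0.1 (1.68) and by voom (2.16). Under median-of-ratios and quantile scaling it was at 0.44 and 0.40, with adjusted p values of 0.0503 and 0.0663. Ifitm5, a bone gene, stayed at 0.431 FPKM or less and was not called.

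The IFIT family binds the altered 5′ ends of viral RNA and showed 0 of 6 members higher and 1 lower in limma with all 8 libraries, and 0 were higher at an unadjusted p under 0.05 or by voom on the recovered fragments. Ifit1 stood at 5.29, 3.84, 4.93 and 14.9 FPKM in the controls and at 10.5, 5.81, 6.65 and 8.53 FPKM after ANG II. Ifit2 stood at 15.6, 11.3, 14.1 and 34.6 FPKM and at 26.8, 18.8, 19.8 and 20.5 FPKM, and Ifit3 at 15.1, 10.8, 10.8 and 39.8 FPKM and at 29.7, 17.9, 20.5 and 23.8 FPKM. In all 3 genes each ANG II library was above controls 1 to 3, and control 4 was above each ANG II library.

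The log2 fold changes of Ifit1, Ifit2 and Ifit3 were 0.25, 0.29 and 0.44, with SEs of 0.33, 0.28 and 0.36 and adjusted p values of 0.61, 0.463 and 0.384. Without control 4 they were 0.62, 0.62 and 0.85, with SEs of 0.19, 0.14 and 0.18 and adjusted p values of 0.0394, 0.0138 and 0.00894. Ifit3b, whose promoter stretch matches that of Ifit3 at every position, went from 0.31 to 0.63 in the same way. Ifit3 and Ifit3b share 51.2% and 45.0% of their sequence words with other genes, chiefly each other. The family median of 0.27 turned to -0.02 under quantile normalization, where Ifit1 was at -0.04.

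Ifit1bl2 was the only member that fell, at 1.95, 2.44, 1.58 and 1.85 FPKM in the controls and 1.14, 0.801, 1.04 and 1.26 FPKM after ANG II. Every ANG II library was below every control, control 4 did not stand out, and the log2 fold change was -0.52 ± 0.12 (SE, adjusted p = 0.0098). It stayed below 0 under all 16 alternatives, and its adjusted p ranged from 0.000975 to 0.0335. Without ANG II 2 or control 2 its fold change of -0.45 or -0.44 was under the fold threshold. The 2 genes that start back to back at the printed stretch thus gave 0.25 for Ifit1 and -0.52 for Ifit1bl2, and this difference was not tested. Ifit1bl1, a further copy, was at 1.57 to 2.71 FPKM over all libraries with a log2 fold change of -0.14.

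The OAS family is named for enzymes that make 2′-5′ oligoadenylate and so activate RNase L, although some members, Oasl1 among them, lack that activity and Oas1b is annotated as a polymorphic pseudogene. The family had 8 of 12 members tested and 1 called higher. Oas3 was at 0.276, 0.0819, 0.458 and 1.36 FPKM in the controls (3 to 52 fragments) and at 2.18, 1.5, 1.95 and 1.8 FPKM after ANG II (60 to 83 fragments). The groups did not overlap, control 4 came closest, and the log2 fold change of 0.95 ± 0.22 (SE, adjusted p = 0.00771) was called under all 16 alternatives. Oas1c did not overlap either, at 0.595, 0.412, 0.208 and 0.506 FPKM and 0.681, 0.971, 0.739 and 0.969 FPKM, but its log2 fold change of 0.37 ± 0.12 (SE, adjusted p = 0.0352) was under the fold threshold, which it crossed with a pseudocount of 0.1 (0.87, adjusted p = 0.0495). Median-of-ratios and quantile scaling gave Oas1c 0.29 and 0.22, with adjusted p values of 0.1 and 0.198.

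Oasl2, an OAS-like protein with a ubiquitin-like tail, was at 14.5, 14.1, 12.9 and 48.2 FPKM in the controls and 31.1, 26.0, 32.6 and 23.0 FPKM after ANG II. Controls 1 to 3 lay within 2 FPKM of one another and below each ANG II library, while control 4 lay above all of them. The log2 fold change was 0.53 ± 0.36 (SE, adjusted p = 0.286) with control 4 and 0.97 ± 0.12 (SE, adjusted p = 0.000934) without it. Oas2 was at 9.83, 7.87, 9.94 and 21.2 FPKM and at 14.7, 8.73, 12.1 and 12.5 FPKM, with a log2 fold change of 0.05 ± 0.26 (SE, adjusted p = 0.899) that turned to -0.15 and -0.20 under median-of-ratios and quantile scaling.

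Oas1a, Oas1b, Oas1g and Oasl1 had log2 fold changes of 0.11 to 0.51 with no call, except that Oas1b turned to -0.06 and -0.21 under those scalings. Without control 4, Oas1a (0.71, adjusted p = 0.012) and Oasl1 (0.83, adjusted p = 0.0136) passed, which with Oas3 and Oasl2 made 4 of 8. Oas1a and Oas1g share 57.6% and 45.7% of their sequence words with other genes, chiefly each other.

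Intact Mx genes encode dynamin-like GTPases that trap viral nucleocapsids. C57BL/6J mice, like most laboratory strains, carry defective alleles of both genes, and Mx2 is annotated as a polymorphic pseudogene. Mx1 was at 2.51, 0.711, 0.744 and 4.71 FPKM in the controls and at 6.72, 4.11, 4.42 and 4.47 FPKM after ANG II. Control 4 lay above 3 of the ANG II libraries, ANG II 1 stood above the rest of its group, and the log2 fold change was 1.07 ± 0.36 (SE, adjusted p = 0.0432). It was called under 5 of 16 alternatives. Without control 4 it was 1.42 (adjusted p = 0.00617), and without any other library the adjusted p lay between 0.0585 (without control 1) and 0.123 (without ANG II 1). Median-of-ratios and quantile scaling gave adjusted p values of 0.0947 and 0.15.

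Mx2 was at 2.93, 1.45, 1.71 and 6.69 FPKM and at 3.76, 2.36, 2.72 and 3.02 FPKM, and its log2 fold change of 0.06 ± 0.32 (SE, adjusted p = 0.899) turned to -0.10 and -0.23 under median-of-ratios and quantile scaling. Control 4 held 3.56 and 3.3 times the mean of the other controls for Mx1 and Mx2.

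The Isg-named genes are a ubiquitin-like modifier, Isg15, an RNA exonuclease, Isg20, and Isg20l2, a nucleolar exonuclease named for its likeness to ISG20. Isg20 rose, from 5.2, 3.15, 3.59 and 4.62 FPKM in the controls to 8.74, 8.09, 7.72 and 5.76 FPKM after ANG II. No libraries overlapped, and the log2 fold change was 0.74 ± 0.15 (SE, adjusted p = 0.00479), with an adjusted p of 0.0584 under quantile normalization. Isg15 was at 12.0, 6.92, 8.84 and 23.8 FPKM and at 23.5, 15.3, 13.7 and 12.9 FPKM. Its log2 fold change was 0.43 ± 0.32 (SE, adjusted p = 0.346) and 0.75 ± 0.22 (SE, adjusted p = 0.038) without control 4. Isg20l2 had a log2 fold change of 0.20, which turned to -0.12 under quantile normalization.

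Small proteins of the IFI27 group sit in mitochondrial and nuclear membranes. Ifi27l2a was at 15.5, 20.3, 11.2 and 32.5 FPKM in the controls and 52.1, 38.9, 82.4 and 45.7 FPKM after ANG II. Its groups did not overlap although control 4 was the highest control, and the log2 fold change was 1.46 ± 0.30 (SE, adjusted p = 0.00484), called under all 16 alternatives. Without control 4 it was 1.72 ± 0.26 (SE, adjusted p = 0.00235).

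Ifi27 was at 35.3, 27.7, 48.3 and 34.9 FPKM and at 51.6, 43.3, 48.8 and 66.9 FPKM. Control 3 lay above 1 ANG II library, and the log2 fold change of 0.52 ± 0.17 (SE, adjusted p = 0.0357) was close to both thresholds, so that it was called under 6 of 16 alternatives. The adjusted p was 0.0816, 0.0626 and 0.101 without ANG II 1, 3 and 4, and 0.0802, 0.0903 and 0.0867 without control 1, 2 and 4. Median-of-ratios and quantile scaling gave adjusted p values of 0.208 and 0.155. Ifi27l2b was at most 0.974 FPKM and was not called in limma on log2(FPKM + 1), and voom called it (2.21, adjusted p = 0.0445).

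The guanylate-binding proteins, GTPases induced chiefly by interferon gamma, gave 0 of 11 tested members higher and 0 lower in limma with all libraries, and 0 at an unadjusted p under 0.05 or by voom. The count was also 0 without control 4, and without control 1 Gbp8 was called (0.64, adjusted p = 0.0461). Gbp3 was at 29.4, 13.3, 25.2 and 45.5 FPKM in the controls and at 36.4, 16.8, 26.3 and 26.7 FPKM after ANG II, and Gbp2 at 30.7, 14.8, 20.4 and 28.8 FPKM and at 37.8, 18.5, 28.4 and 22.6 FPKM. Gbp3 thus ran from 13.3 to 45.5 FPKM within the controls alone. Their log2 fold changes were -0.02 ± 0.33 and 0.18 ± 0.25 (SE), with adjusted p values of 0.972 and 0.626, and Gbp2 turned to -0.03 under both other scalings.

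Of the other 9 tested members, Gbp4, Gbp5, Gbp7 and Gbp9 had log2 fold changes of -0.16 to -0.03, Gbp2b of -0.18, Gbp11 of 0.06 and Gbp6, Gbp8 and Gbp10 of 0.24 to 0.59, with adjusted p values of 0.133 or more. Without control 4 the first 4 turned to 0.09 to 0.20, and the median over the 11 tested members went from -0.02 to 0.14. Under quantile normalization Gbp10 and Gbp11 turned to -0.05 and -0.01, and by voom Gbp2b turned to 0.08. Control 4 was not high for each of them. Gbp6 was at 15.0, 3.64, 15.6 and 8.6 FPKM in the controls, Gbp10 at 9.77, 1.23, 8.07 and 2.25 FPKM and Gbp8 at 1.13, 0.117, 0.801 and 0.196 FPKM. In these 3 genes and in Gbp2b controls 1 and 3 were high and controls 2 and 4 low, whereas Gbp3, Gbp4, Gbp5, Gbp7 and Gbp9 were highest in control 4. T and NK cell markers, summed, were 14.7, 3.38, 7.63 and 3.22 FPKM in controls 1 to 4 and 17.0, 11.2, 20.3 and 25.6 FPKM in ANG II 1 to 4. Gbp2b was at 1.05, 0.0243, 0.385 and 0.0232 FPKM and at 0.0935, 0.133, 0.305 and 0.133 FPKM in the same libraries. The part of these cells was not tested. Gbp6 and Gbp10 share 70.7% and 84.1% of their sequence words with other genes and lie within Gm43302, which was listed at 0 in all 8 libraries, so the split of reads among them is uncertain.

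**Figure D4:**
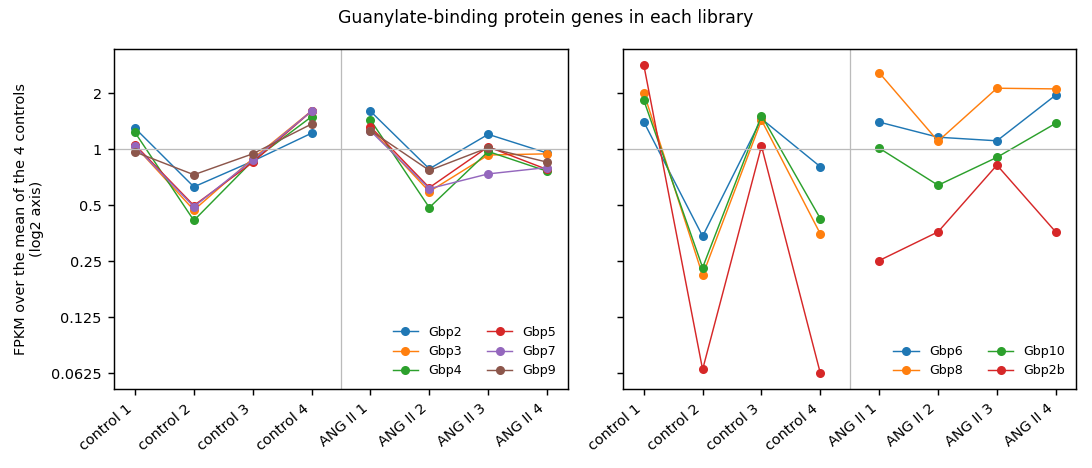
FPKM over the mean of the 4 controls (y axis, log2 scale) of guanylate-binding protein genes in each library (x axis), with lines joining the values of 1 gene within a group. On the left 6 genes have control 2 as their lowest control. Of these, Gbp3, Gbp4, Gbp5, Gbp7 and Gbp9 have control 4 as the highest control, and Gbp2 has control 1. On the right Gbp6, Gbp8, Gbp10 and Gbp2b are low in both control 2 and control 4. The 2 panels were set after the values were seen, and Gbp11, at 0.296 FPKM or less, is left out.

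The immunity-related GTPases Irgm1 and Irgm2, which guard the membranes of vacuoles, gave 0 calls in either direction in limma with all libraries and without control 4, and 0 at an unadjusted p under 0.05 or by voom. Irgm1 was at 10.4, 4.02, 8.73 and 8.88 FPKM in the controls and at 12.4, 5.96, 8.38 and 10.6 FPKM after ANG II, and Irgm2 at 24.4, 8.61, 18.8 and 18.8 FPKM and at 23.2, 12.8, 15.4 and 17.6 FPKM. Control 2 was the lowest library for both and control 4 lay among the other controls, at 1.15 and 1.09 times their mean. The log2 fold changes were 0.22 ± 0.27 and 0.02 ± 0.28 (SE), with adjusted p values of 0.57 and 0.962, and Irgm2 turned to -0.18 and -0.21 under the other scalings while Irgm1 turned to -0.05 under quantile normalization.

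Of the remaining members, Ifi35, a binding partner of NMI, was at 5.81, 4.82, 4.56 and 7.4 FPKM in the controls and at 6.05, 5.65, 7.6 and 5.53 FPKM after ANG II. Ifi44 was at 5.67, 4.81, 7.51 and 16.6 FPKM and at 9.6, 6.88, 8.33 and 7.59 FPKM, with control 4 the highest of the 8 libraries. Their log2 fold changes of 0.13 ± 0.15 and 0.05 ± 0.30 (SE) had adjusted p values of 0.542 and 0.914 and turned to -0.06 and -0.14 under median-of-ratios scaling. Ifi30, a lysosomal thiol reductase, was listed at 0 in controls 2 and 4 and in ANG II 2 and 3 and at 0.862 to 4.1 FPKM in the other 4 libraries.

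The families differed in how control 4 stood to the other controls. Its median ratio to the mean of controls 1 to 3 was 3.43 for Mx, 2.67 for IFIT, 2.37 for OAS, 2.21 for p200, 2.07 for IFI27, 2.03 for Ifih1, 1.46 for Ifi30, Ifi35 and Ifi44, 1.31 for GBP, 1.23 for IFITM, 1.16 for the Isg-named genes, 1.12 for the IRG GTPases and 0.868 for IRF. The Mx median rests on 2 genes and the Ifih1 value on 1. Single genes spread widely within families, from 0.806 to 3.26 in IFIT, 1.25 to 4.99 in OAS and 0.942 to 4.06 in IFI27. The ratios ran from 0.0475 to 2.01 in GBP, 0.711 to 2.44 in IFITM and 0.579 to 1.91 in IRF. In control 4, Ifit1, Ifit3, Oas2 and Oasl2 lay beyond Dixon's 95% value above the other controls, against 1.2% of all genes tested. Macrophage markers summed to 322.2 FPKM in control 4, within the range of the other controls, and T and NK cell markers to 3.22 FPKM, the lowest of them. Plasmacytoid dendritic cells, the type that makes most type I interferon, had 6 listed markers, of which control 4 was the highest control for 1. That marker, Pacsin1, was at 0.403, 0.299, 0.44 and 0.825 FPKM in controls 1 to 4. Siglech was at 0.086, 0.255, 0.113 and 0.163 FPKM, Ccr9, Klk1 and Ly6d stayed under 0.1 FPKM in every control, and Cox6a2, also a muscle gene, was at 843.5 to 1001 FPKM. The part of these cells was not tested.

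**Figure D5:**
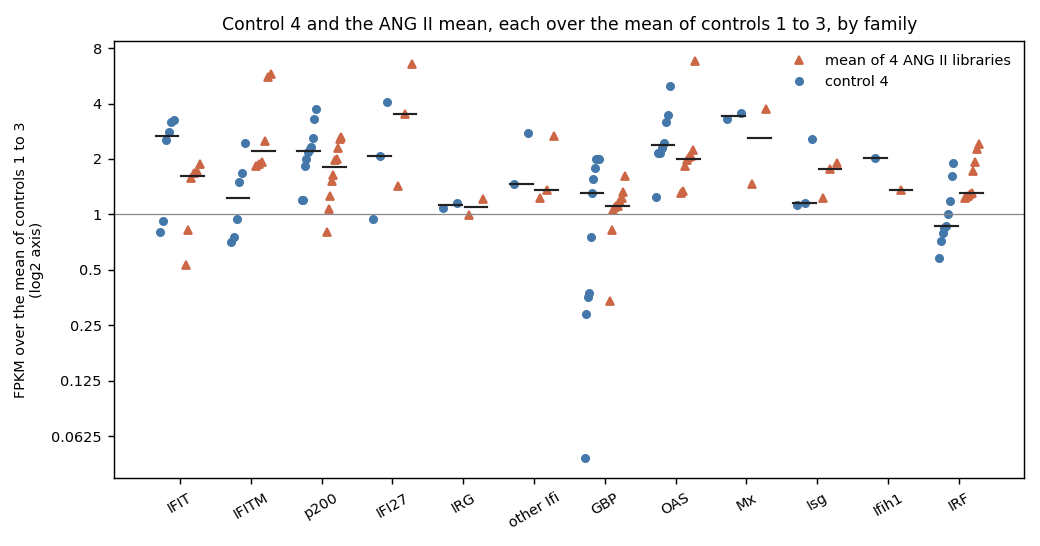
FPKM in control 4 (blue circles) and mean FPKM of the 4 ANG II libraries (orange triangles), each over the mean of controls 1 to 3 (y axis, log2 scale), for the tested members of each family (x axis), with the median as a bar. Control 4 has a median of 3.43 for Mx and 2.67 for IFIT and of 0.868 for IRF. A ratio of 0 (Ifi30 in control 4) cannot be drawn on this axis.

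The genes upstream of these families were taken from a list of 98 pathway genes, set like the marker lists with earlier results of these data known. Of these genes 96 were in the table and 73 were tested. With ANG II 20 were called higher (30 without control 4, and 10 under each of the other scalings) and 0 lower by limma, against the 14.0% and 1.41% of all genes, and their median log2 fold change was 0.27. The count lower was 0 by voom too, and 1 gene, Ifngr2, was lower at an unadjusted p under 0.05. None of the 21 interferon ligand genes reached the mean of 0.1 FPKM, and 17 were at 0 in all libraries. Ifnb1 had 1 fragment in 1 library, ANG II 3, and Ifng at most 1 fragment in a control and 4 fragments in ANG II 3.

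Of 6 receptor genes 3 rose. Ifnar1 was at 20.6, 20.4, 17.6 and 16.1 FPKM in the controls and at 30.8, 30.7, 29.5 and 29.5 FPKM after ANG II, a log2 fold change of 0.67 ± 0.08 (SE, adjusted p = 0.000214). Ifnar2 rose from a mean of 9.8 ± 0.525 to 16.2 ± 1.01 FPKM and Ifngr1 from 59.2 ± 4.15 to 94.6 ± 8.37 FPKM (SD, n = 4), both without overlap. Ifngr2 was at 84.9 ± 5.21 and 72.0 ± 3.05 FPKM (SD, n = 4), with a log2 fold change of -0.23 ± 0.06 (SE, adjusted p = 0.00939). Under median-of-ratios and quantile scaling Ifnar1, Ifnar2 and Ifngr1 were no longer past the fold threshold.

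Of 6 signal transducers 1 rose, the kinase gene Tyk2, from 5.45 ± 0.691 to 8.78 ± 0.69 FPKM (SD, n = 4), though not under those scalings. Stat2 was at 20.4, 15.0, 17.4 and 37.2 FPKM in the controls and at 32.7, 18.9, 23.8 and 23.4 FPKM after ANG II (log2 fold change 0.19 ± 0.25 SE, adjusted p = 0.607). The log2 fold change was -0.02 under both other scalings and 0.45 without control 4. Control 4 was at 2.11 times the mean of the other controls for Stat2.

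Nucleic acid sensors and adaptors gave 7 of 14 tested genes higher, and 8 without control 4. Tmem173, which encodes STING, rose from 6.12 ± 1.63 to 14.4 ± 1.13 FPKM, Tlr7, a sensor of single-stranded RNA, from 2.73 ± 0.535 to 7.15 ± 1.1 FPKM, and Aim2, a sensor of cytosolic DNA, from 2.48 ± 0.581 to 5.83 ± 1.13 FPKM (SD, n = 4). Their log2 fold changes were 1.14, 1.13 and 0.98, with adjusted p values of 0.000355, 0.000245 and 0.000821.

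Of 6 tested negative regulators 1 rose, Socs3, from 4.23 ± 0.868 to 14.3 ± 3.41 FPKM (SD, n = 4, log2 fold change 1.54, adjusted p = 0.000178). Usp18, which removes ISG15 from proteins, was at 5.39, 4.49, 4.5 and 10.6 FPKM in the controls and 9.09, 6.45, 6.65 and 7.14 FPKM after ANG II. Its adjusted p was 0.407, and 0.0176 without control 4.

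Of 41 other interferon-induced effectors 8 were higher, and 16 without control 4, which was the highest control for 32 of them. Cxcl10, a chemokine for T cells, rose from 1.49 ± 1.16 to 5.32 ± 1.69 FPKM, Epsti1 from 2.26 ± 0.733 to 5.78 ± 1.17 FPKM and Lgals3bp from 46.0 ± 12.3 to 94.2 ± 9.43 FPKM (SD, n = 4). Their log2 fold changes were 1.41, 1.06 and 1.05, with adjusted p values of 0.00488, 0.00141 and 0.000623. Rsad2, which encodes viperin, was at 16.8, 12.4, 16.1 and 30.6 FPKM and at 24.3, 17.9, 20.6 and 21.3 FPKM, with an adjusted p of 0.506 and of 0.0286 without control 4.

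Beside these counts all 13 macrophage markers, all 8 fibroblast markers, 4 of 5 tested neutrophil markers, 3 of 12 T and NK cell markers, 2 of 6 B cell markers and 2 of 8 endothelial markers were called higher after ANG II, and 2 of 8 cardiomyocyte markers lower. Of the 4 tested markers of plasmacytoid dendritic cells limma called 0 with all libraries and 1 without control 4, with 2 at an unadjusted p under 0.05 and 2 by voom. The part of these cell types in the levels of the interferon-inducible members was not tested.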

How the data were processed

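Left ventricle RNA was measured in 4 control and 4 ANG II libraries by poly(A) RNA sequencing (paired-end reads of 150 bases, per the study's methods), and the methods give more biological replicates per group than the 4 libraries analysed here. The authors deposited 1 table of FPKM values per gene, and the submitters' processing notes name HISAT, Bowtie2 and RSEM; their roles, the genome build and strand use are not given in the sources used here. Groups came from the treatment label.

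Values were tested as log2(FPKM + 1) with limma 3.58.1 (variance trend) in R 4.3.3, over genes whose mean reached 0.1 FPKM, with Benjamini-Hochberg adjustment. Single members were also tested by exact permutation. Fragment counts were recovered from FPKM steps with transcript lengths of GENCODE M21, in which all 74 members and 55141 of 55679 gene IDs were found. Among values of few fragments, 97.61 to 99.34% came out whole within 0.05 of a fragment, and larger values were not checked in this way. Counting error alone is covered by the recovered fragment counts. The test was checked on simulated data with the same spread for every gene, equal numbers of genes raised and lowered, and no outlying library. That check does not cover members with a library set apart, such as control 4. "Sequence words" are short runs of transcript sequence shared with another gene. Motifs were searched in RefSeq promoters.

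Members were picked by gene symbol, but the symbol rule and the gene lists were set with earlier results of these data known. Values in all 8 libraries are given for called members, those past the adjusted p, the 2 of highest mean in each family and outlying members above 1 FPKM (34 in all); pathway genes are given up to 3 per list, beside Ifnb1, Ifng, both receptor pairs, Stat2, Usp18, Rsad2 and Cxcl10. Alternatives were another pseudocount (0.1), filter, scaling, threshold, variance model, a replicate block, voom on the fragments, and each library left out. Some values of single genes are not reported here.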

Additional observations from a re-analysis of the deposited data

Results flagged for a closer look

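Among the 64 tested members in the 2 groups of 4 libraries, 128 sets were examined and 10 held a library far from the rest by Dixon's rule, where chance alone gives about 1 in 20 (6.4). In control 4, Ifit1 (14.9 FPKM), Ifit3 (39.8 FPKM), Oas2 (21.2 FPKM) and Oasl2 (48.2 FPKM) lay above the other controls, and without that library Ifit1, Ifit3 and Oasl2 were called higher after ANG II. Irf8 lay high in control 1 (7.4 FPKM) and was called with or without it.

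In the ANG II group, Mx1 was high in ANG II 1 (6.72 FPKM), Ifitm1 in ANG II 3 (6.56 FPKM) and Ifi27l2b in ANG II 4 (0.974 FPKM). Irf5 (9.0 FPKM) and Ifi209 (3.26 FPKM) were low in ANG II 2. Irf5, Ifi209 and Ifitm1 were still called without the library concerned, and Mx1 was not (adjusted p = 0.123 in limma without ANG II 1). The cause of these values was not tested.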

How the results depend on the processing

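Beside the 13 members higher, 1 lower, and 20 and 0 pathway genes, median-of-ratios scaling gave 8, 2, 10 and 0 and quantile normalization 7, 2, 10 and 0. With all 8 libraries voom gave 18 members higher, a pseudocount of 0.1 gave 16, a minimum of 1 FPKM 14, no variance trend 11 and no filter 10, each with 1 lower. A log2 fold change above 1 left 4, 0, 6 and 0, and dropping the fold threshold gave 16, 1, 24 and 1. Leaving out each library in turn gave 9 to 24, 0 to 1, 15 to 30 and 0 to 0, with the highest counts without control 4. For 34 named members, 541 values were recomputed: 443 kept direction and side of the threshold, 41 lost the call, 20 gained one and 37 changed sign, 0 of these in a called member. For changes of sign the cause was not tested.

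Of all 64 tested members 10 changed sign under median-of-ratios scaling, 16 under quantile normalization, 1 by voom and 17 in at least 1 fit without a library. Among the 34 named by rule the log2 fold changes that turned under median-of-ratios scaling were Gbp2 -0.03, Irgm2 -0.18, Ifih1 -0.0279, Mx2 -0.10, Oas2 -0.15, Ifi35 -0.0598, Ifi44 -0.14 and Ifi203 -0.10, and under quantile normalization Gbp2 -0.03, Ifit1 -0.0439, Irgm1 -0.0537, Irgm2 -0.21, Ifih1 -0.11, Mx2 -0.23, Oas2 -0.20, Ifi35 -0.17, Ifi44 -0.23 and Ifi203 -0.0708.

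Leaving out each library in turn changed the sign at least once for 9 of these 34, with the range over the 8 fits of Gbp3 -0.32 to 0.24, Gbp2 -0.0167 to 0.33, Irgm1 -0.0382 to 0.40, Irgm2 -0.27 to 0.20, Ifih1 -0.0404 to 0.40, Mx2 -0.14 to 0.41, Oas2 -0.11 to 0.34, Ifi44 -0.14 to 0.39 and Ifi203 -0.0273 to 0.33.

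Over all genes tested, same-numbered libraries did not move together, and their deviations correlated at -0.0163, 0.062, -0.032 and -0.00929. Among the members, control 2 was the lowest control for 41 and ANG II 2 the lowest ANG II library for 43. Control 4 was the highest control for 41, but ANG II 4 the highest ANG II library for only 10. Whether replicate numbers pair the libraries for the members was not tested. With the replicate block 14 members were higher (Irf7 added) and 1 lower, with 22 and 0 pathway genes. Counts near the filter, such as 3 fragments for Ifitm10 and Oas3, limit the precision of low members, and FPKM of genes that share sequence depends on how reads were divided.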
